A study of Mus musculus with 3 samples.

Results

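The genes described here are Csf1r, the receptor for the cytokines CSF1 and IL-34, the ligand genes Csf1 and Il34, the gene of the cytokine GM-CSF (Csf2), and the genes of its receptor chains, Csf2ra and Csf2rb. They were chosen by symbol and are 6 of the 34289 features in the deposited matrices. Csf2rb2, a mouse paralogue of Csf2rb, is shown beside them. All 3 single-cell libraries came from ear epidermis of male Cd1 mice and had been enriched for Langerhans cells, which live in the epidermis and present antigen. One library was from untreated mice, which were given the depilatory Nair only. Another was from mice treated with croton oil, a plant irritant, in acetone and olive oil. The last was from mice given multiple punches with a microneedle array. Treated skin was taken 48 hours after the first treatment, and the number of mice behind a library is not given in the sources used here. With 1 library per group there is no replicate error and no test, and every interval below is a 95% counting interval that says nothing of the spread between mice.

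CSF1R is a receptor tyrosine kinase on macrophages and their relatives, and Langerhans cells need it to form and persist. In the epidermis its main known ligand is IL-34 made by keratinocytes, while CSF1 is made by many cell types and is known to support cells that enter inflamed skin. GM-CSF acts through a specific alpha chain, encoded by Csf2ra, paired with the common beta chain encoded by Csf2rb, which IL-3 and IL-5 receptors share. The mouse paralogue Csf2rb2 encodes a beta chain specific to IL-3.

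Libraries held 6945 to 9876 cell barcodes and 117178809 to 127666928 unique molecular identifiers (UMIs), each UMI standing for 1 captured RNA molecule. After filters on quality and doublets, 9054, 7626 and 6479 cells were retained in the untreated, croton oil and microneedle libraries. Langerhans cells were gated by antigen presentation genes (Cd74, H2-Aa, H2-Ab1 and H2-Eb1 at 2% of UMIs or more) and at least 2 UMIs of Epcam, which gave 8651, 5922 and 5295 cells. The defining marker Cd207, the gene of langerin, was at 568, 327 and 466 CPM in them, where CPM is UMIs of a gene per 1000000 UMIs of the class. Pairs of libraries shared 13 to 32 barcodes. Gated cells that lay in macrophage, neutrophil or T cell clusters numbered 12, 78 and 15, and the T cell gene Cd3g was at 0.9, 24.8 and 3.1 CPM in the gate.

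In GRCm39 with the GENCODE M39 annotation, Csf1r (ENSMUSG00000024621) lies at chr18:61229714-61266535 on the plus strand, with Hmgxb3 overlapping it on the other strand. Il34 (ENSMUSG00000031750) lies at chr8:111423928-111532584 on the minus strand, where Vac14 and Mtss2 overlap it on the other strand. Whether the authors' counting used the strand is not given in the sources used here, so reads from these overlaps cannot be told apart. Csf1 (ENSMUSG00000014599) lies at chr3:107648364-107667806, Csf2 (ENSMUSG00000018916) at chr11:54138097-54140493 and Csf2ra (ENSMUSG00000059326) at chr19:61212395-61216892, all on the minus strand. Csf2rb (ENSMUSG00000071713) at chr15:78209952-78238047 on the plus strand is a neighbour of Csf2rb2 (ENSMUSG00000071714) at chr15:78166707-78189921 on the minus strand. Csf1, Csf2, Csf2ra and Csf2rb2 are also overlapped on the other strand, by Gm40121, Gm57329, Gm56644 and Gm62349, with the same limit on reads.

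Csf1r, among the named cell classes of at least 50 cells, was highest in Langerhans cells, and those of both treated libraries carried more than untreated cells. Untreated Langerhans cells had 302 CPM (299 to 305), those of croton oil 588 CPM (583 to 593) and those of microneedle 624 CPM (619 to 629). A gene was called changed when log2 of the ratio of CPM, each with 5 CPM added, reached 1, that is 2-fold. By this rule Csf1r rose in microneedle, by 2.06-fold (2.04 to 2.09) or 1.03 on the log2 scale. In croton oil it was 1.95-fold the untreated level (1.92 to 1.97), a log2 difference of 0.95 that fell just short of the threshold. Both values lie within 0.1 log2 of the threshold. TMM scaling, a trimmed-mean correction of library totals, took croton oil past it (1.06), and leaving mitochondrial and ribosomal protein genes out of the totals took microneedle below it (0.99).

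Csf2rb, the shared beta chain, rose in both treated libraries. Its levels were 181 CPM (178 to 183) in untreated cells, 455 CPM (450 to 459) in those of croton oil and 373 CPM (369 to 376) in those of microneedle. The rise was 2.51-fold (2.47 to 2.56) in croton oil and 2.06-fold (2.02 to 2.10) in microneedle. The microneedle value (log2 1.02) also went just below the threshold without those genes in the totals (0.98) and with TMM scaling; croton oil stayed above it in 12 of 12 settings. The paralogue Csf2rb2 was at 58.1, 114 and 99.8 CPM, with log2 differences of 0.91 and 0.73 that did not reach the threshold. Csf2ra, the chain specific to GM-CSF, stood apart from the beta chains: it was at 89.7 CPM (87.9 to 91.5), 87.2 CPM (85.2 to 89.2) and 110 CPM (108 to 112), log2 differences of -0.04 and 0.28.

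Only Csf1r, Csf2ra and Csf2rb reached 20 CPM in Langerhans cells of these libraries. Of the 6 genes, 1 was thus at least 2-fold higher in croton oil and 2 in microneedle, and none was lower. Among all genes of 20 CPM or more, 5.5% were higher and 5.53% lower by this rule in croton oil (6837 genes), and 3.88% were higher and 1.76% lower in microneedle (6703 genes). Csf2rb had a larger log2 difference than 96.7% of these genes in croton oil, and Csf1r than 96.4% in microneedle. Both contrasts use the same untreated library. Between croton oil and microneedle Langerhans cells none of the 6 genes was 2-fold apart, against 1.63% of 6633 genes higher in croton oil and 1.04% lower. Csf1r was 1.06-fold (1.05 to 1.07) higher in microneedle, and Csf2rb 1.22-fold (1.20 to 1.24) higher in croton oil.

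**Figure D1:**
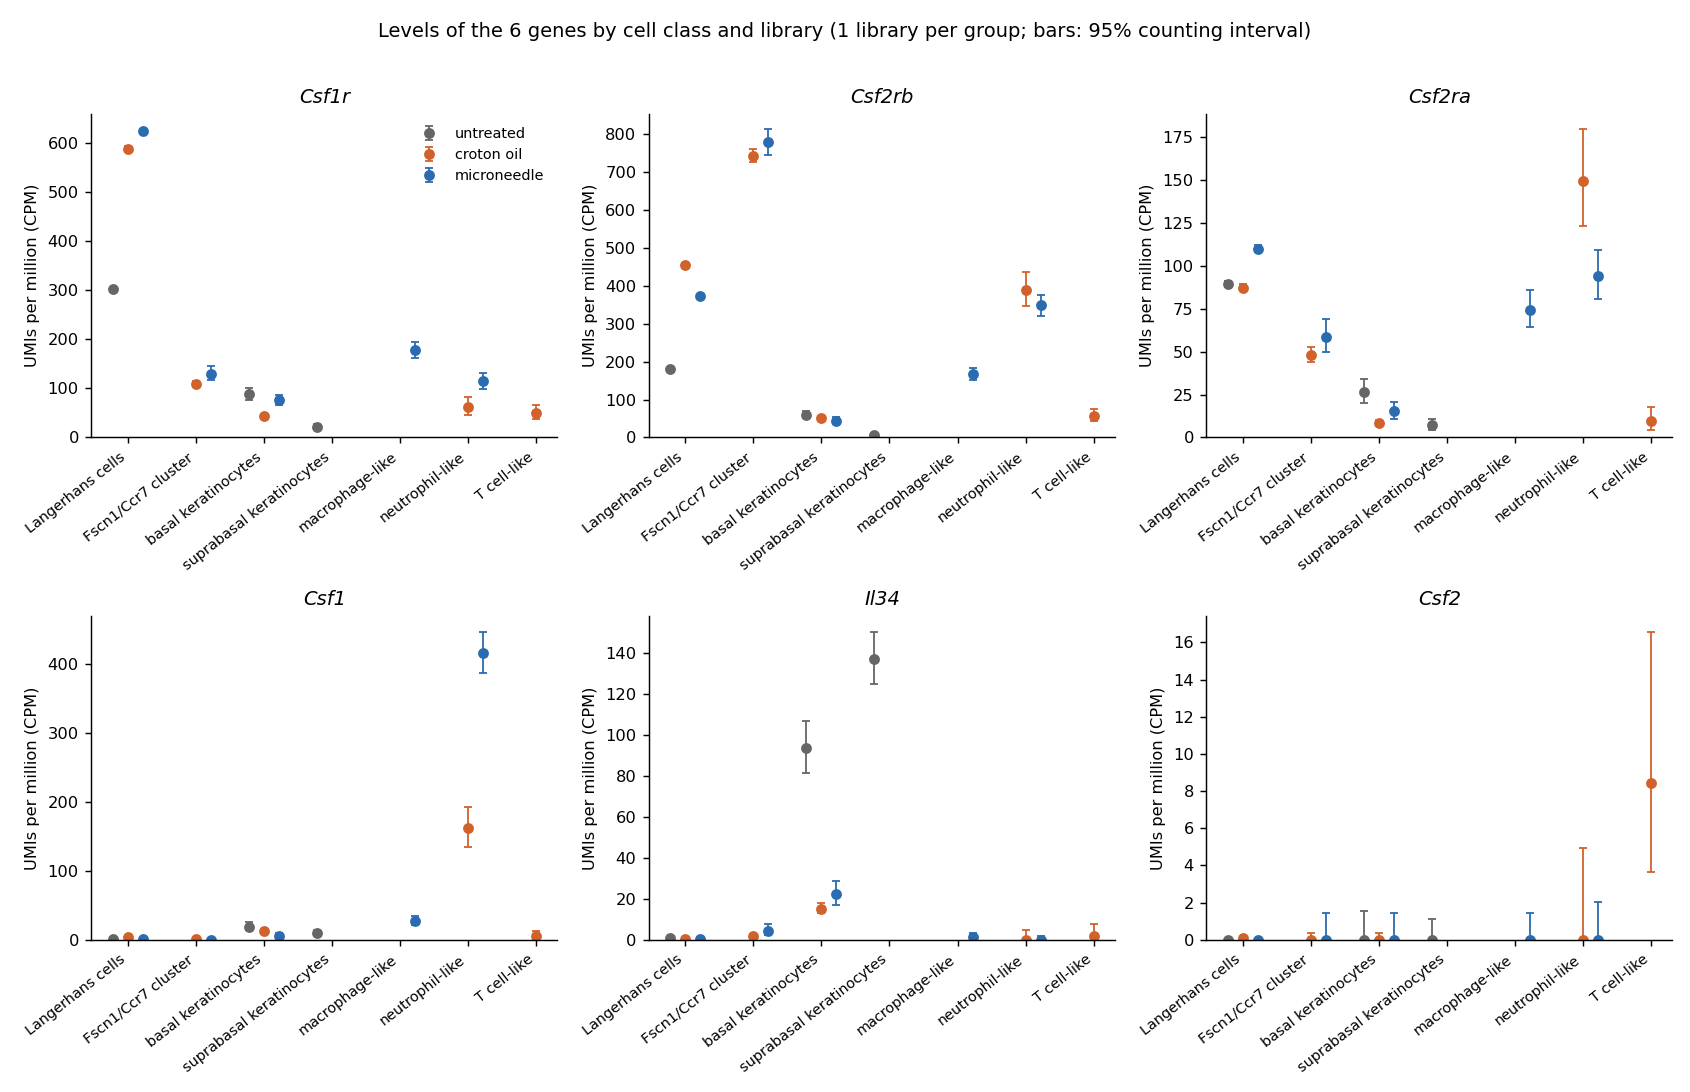
Each panel shows 1 gene, with its level in CPM (linear axis from 0, own scale) for each cell class of at least 50 cells. Points are single libraries and bars are 95% counting intervals. Csf1r peaks in Langerhans cells, at 302 CPM untreated and 588 and 624 CPM treated, Csf2rb in the Fscn1/Ccr7 cluster, Csf1 in neutrophil-like cells and Il34 in keratinocytes.

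To compare cells of unequal depth, each Langerhans cell was thinned to 3000 UMIs, which left out 102, 32 and 59 shallower cells. The share with Csf1r was then 57.0% (55.9 to 58.1) in untreated, 79.6% (78.5 to 80.6) after croton oil and 79.1% (78.0 to 80.2) after microneedle. Before thinning, at median depths of 11527, 12576 and 17342 UMIs, the shares were 91.4%, 98.5% and 99.2%. Basal keratinocytes, which are not known to express Csf1r, had it in 20.3%, 10.0% and 20.7% of cells at the same 3000 UMIs, below the Langerhans cells of each library. The mean was 0.904, 1.79 and 1.82 Csf1r UMIs per thinned cell, and the median moved from 1 in untreated to 2 in both treated libraries.

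Csf2rb was detected in 30.8% (29.9 to 31.8), 64.2% (63.0 to 65.4) and 54.1% (52.7 to 55.4) of thinned cells. Before thinning it was seen in 62.1%, 92.7% and 90.4%, and thinned basal keratinocytes had it in 8.86%, 8.24% and 10.3%. Csf2ra was seen in 22.7%, 23.1% and 26.6% of thinned cells. The share with Cd207 went the other way, with 75.6%, 46.0% and 65.4%.

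**Figure D2:**
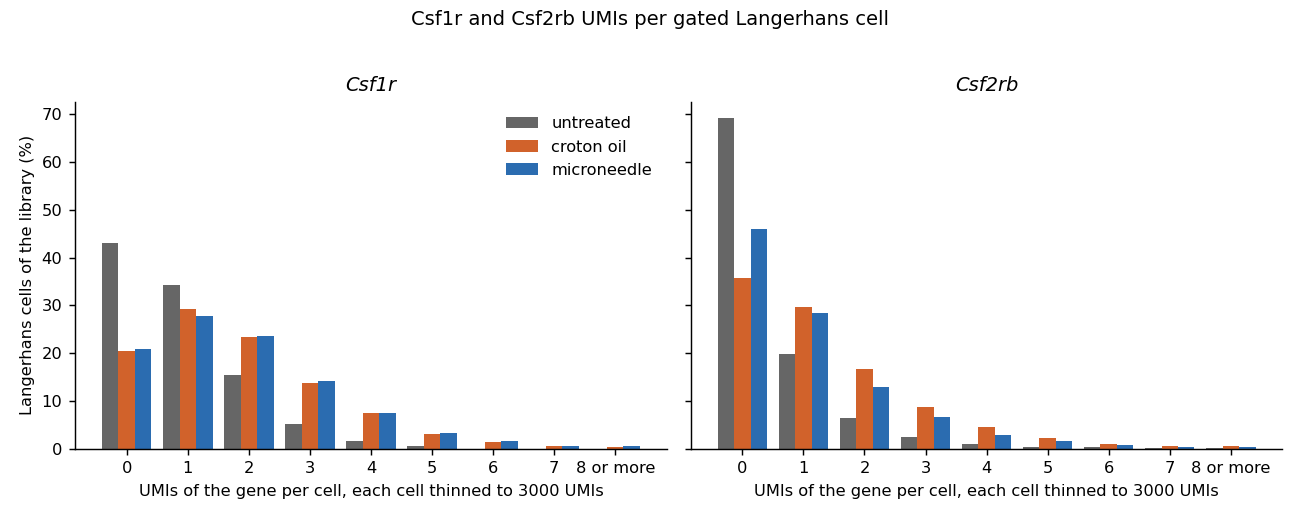
Bars give the percentage of gated Langerhans cells of each library with 0, 1, 2 and up to 8 or more UMIs of Csf1r (left) or Csf2rb (right) after thinning every cell to 3000 UMIs. Untreated cells without a Csf1r UMI made up 43.0%, against 20.4% and 20.9% in croton oil and microneedle. The whole distribution is shifted in both treated libraries.

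Detection of 1 receptor gene told little of another in the same cell. In untreated cells Csf2rb was detected in 31.9% of thinned cells that had Csf1r and in 29.5% of those that did not. The corresponding pairs were 64.2% and 64.3% in croton oil and 54.9% and 51.1% in microneedle. For the chains of the GM-CSF receptor, Csf2rb was present in 30.2% of untreated cells with Csf2ra and in 31.0% of those without. These shares describe detection at 3000 UMIs.

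Within the gate, the joint clusters separated mostly by library. The largest cluster of each library alone gave nearly the same levels as the gate, with 298, 603 and 625 CPM of Csf1r in untreated (7525 cells), croton oil (4761) and microneedle (4006). A cluster led by the heat-shock genes Hsph1, Hspa1a and Hspa1b held 770, 726 and 649 gated cells, with Csf1r at 353, 616 and 813 CPM and Csf2rb at 107, 415 and 360 CPM. Microneedle cells of this cluster had 813 CPM of Csf1r (794 to 832), and the 115 gated microneedle cells in the main croton oil cluster had 823 CPM (781 to 868). The 446 gated microneedle cells in the main untreated cluster were lower, with 381 CPM of Csf1r (366 to 396) and 280 CPM of Csf2rb (268 to 293). Conversely, the 98 gated untreated cells in the main microneedle cluster had 535 CPM of Csf1r (498 to 575) and 294 CPM of Csf2rb (267 to 324). Within both libraries the levels thus differed between clusters, which were drawn from 2000 variable genes. Cycling Langerhans cells of the untreated library (185 cells, led by Stmn1 and Top2a) had 248 CPM of Csf1r (233 to 265) and 153 CPM of Csf2rb (141 to 167).

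The cluster led by Fscn1, Ccl22 and Ccr7, genes known from dendritic cells that leave tissue for lymph nodes, carried the receptors in the opposite balance. It comprised 28 cells of untreated, 928 of croton oil and 184 of microneedle skin. The gate kept 21, 230 and 29 of them, so most of this cluster lies outside the Langerhans cell values above. Its 698 croton oil cells outside the gate had 109 CPM of Csf1r (103 to 116), and the 155 microneedle cells had 130 CPM (116 to 145). Csf2rb was at 743 CPM (726 to 760) and 778 CPM (744 to 813) in the same cells, above the gated cells of either library. Csf2ra was at 48.2 CPM (44.0 to 52.7) and 58.8 CPM (49.7 to 69.0), below the gate. The 230 croton oil cells of the cluster that passed the gate were between, with 375 CPM of Csf1r and 553 CPM of Csf2rb. Clusters were drawn from 2000 variable genes, and whether the receptor genes were among them is not given here. These levels are thus a description. Cd207 was at 152 CPM in both sets outside the gate and at 697 CPM in the gated croton oil cells. Flt3, a gene of conventional dendritic cells, was at 457 and 582 CPM outside and 160 CPM inside. Other conventional dendritic cell genes are not given here. Epcam, which is part of the gate, was at 391 and 479 CPM outside and 503 CPM inside. All gated croton oil cells had 1141 CPM of Epcam. Which cell type these cells came from was not tested. The untreated library had too few of them to compare.

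Ungated cells that joined no other class numbered 151, 426 and 137, and 359 of the croton oil ones lay in the largest Langerhans-like cluster. Their Csf1r levels were 283 CPM (236 to 336), 664 CPM (638 to 690) and 602 CPM (554 to 653). Csf2rb was higher in them than in the gate of each library, at 318 CPM (268 to 374), 537 CPM (514 to 561) and 556 CPM (510 to 605).

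**Figure D3:**
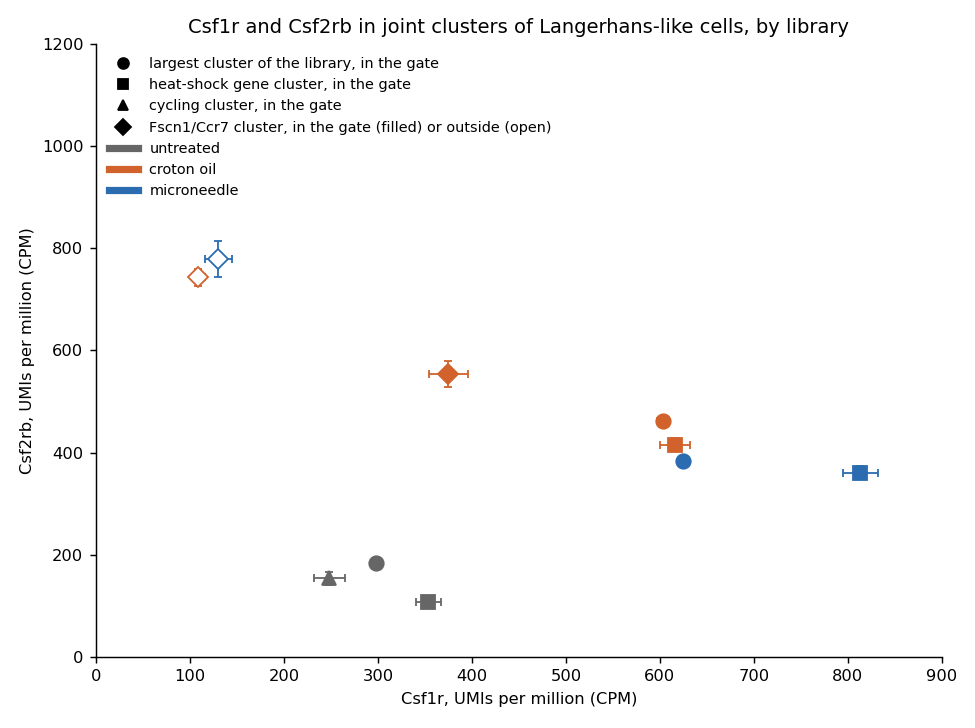
Each symbol is a joint cluster of Langerhans-like cells in 1 library, placed by its Csf1r level (x axis) and Csf2rb level (y axis), both in CPM, with 95% counting intervals. Open diamonds, the Fscn1/Ccr7 cluster outside the gate, sit at 109 and 130 CPM of Csf1r and 743 and 778 CPM of Csf2rb, apart from the largest clusters.

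The other myeloid cells also carried these receptors. Neutrophil-like cells, led by S100a8 and S100a9, numbered 212 in croton oil and 409 in microneedle, with 1 in untreated. They were shallow, with medians of 3042 and 3304 UMIs. In croton oil they had Csf2rb at 390 CPM (346 to 437), in microneedle at 348 CPM (322 to 377), and Csf2ra at 150 CPM (123 to 180) and 94.3 CPM (80.6 to 110). Csf1r was low beside Langerhans cells, at 61.4 CPM (45.0 to 81.9) and 114 CPM (99.2 to 131). The 367 monocyte/macrophage-like cells of the microneedle library, led by Pf4, Ccl7 and Lyz2, had 178 CPM of Csf1r (162 to 195), 166 CPM of Csf2rb and 74.5 CPM of Csf2ra. Such cells were nearly lacking in untreated (3) and croton oil (6).

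Across the named classes of at least 50 cells, Csf1r was highest in microneedle, then croton oil, then untreated Langerhans cells. Macrophage-like cells of microneedle followed, all 4 with intervals that do not overlap. Next came the microneedle Fscn1/Ccr7 cluster, microneedle neutrophil-like cells and the croton oil Fscn1/Ccr7 cluster, each overlapping its neighbour in this order. Basal keratinocytes, croton oil neutrophil-like cells and T cell-like cells were lower still.

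Receptor levels in other classes were set beside those of Langerhans cell markers. In untreated basal keratinocytes, gated by Krt14 and Krt5, Cd207 was at 28.1% (25.3 to 31.1) of its Langerhans cell level and Cd74 at 27.3% (26.8 to 27.8). Csf1r there was at 29.2% (25.4 to 33.5), Csf2ra at 29.5% (22.6 to 37.8) and Csf2rb at 33.0% (27.7 to 38.97). The receptor genes in these keratinocytes, at 88.3, 26.4 and 59.7 CPM, thus stood at about the same fraction as the Langerhans cell markers and were not read as expression. Untreated suprabasal keratinocytes had lower fractions, 6.75% for Cd207, 7.49% for Cd74 and 7.14% for Csf1r. How this RNA came to the keratinocytes was not tested. Croton oil basal keratinocytes had 6.26% for Cd207, 7.49% for Cd74 and 7.33% for Csf1r, with Csf2rb above them at 11.6% (10.6 to 12.6).

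Neutrophil-like and macrophage-like cells were different. In the microneedle library Cd207 was at 4.64% and 2.48% of its Langerhans cell level in them, while Csf1r was at 18.3% (15.9 to 21.0) and 28.6% (26.0 to 31.3). Csf2rb reached 93.5% (86.2 to 101) of the Langerhans cell level in microneedle neutrophil-like cells and 85.8% (76.2 to 96.2) in croton oil ones. For Csf2ra the croton oil neutrophil-like cells were above Langerhans cells, at 171% (141 to 207), and the microneedle ones below, at 85.7% (73.2 to 99.7). T cell-like cells of croton oil had 8.59% (6.33 to 11.4) for Csf1r beside 3.86% (1.99 to 6.74) for Cd207, intervals that overlap. H2-Aa and Cd74 were at 5.82% and 4.11% in them. Their 48 Csf1r UMIs lay in 9 of 134 cells, and the part of Langerhans cell RNA in this was not tested.

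**Figure D4:**
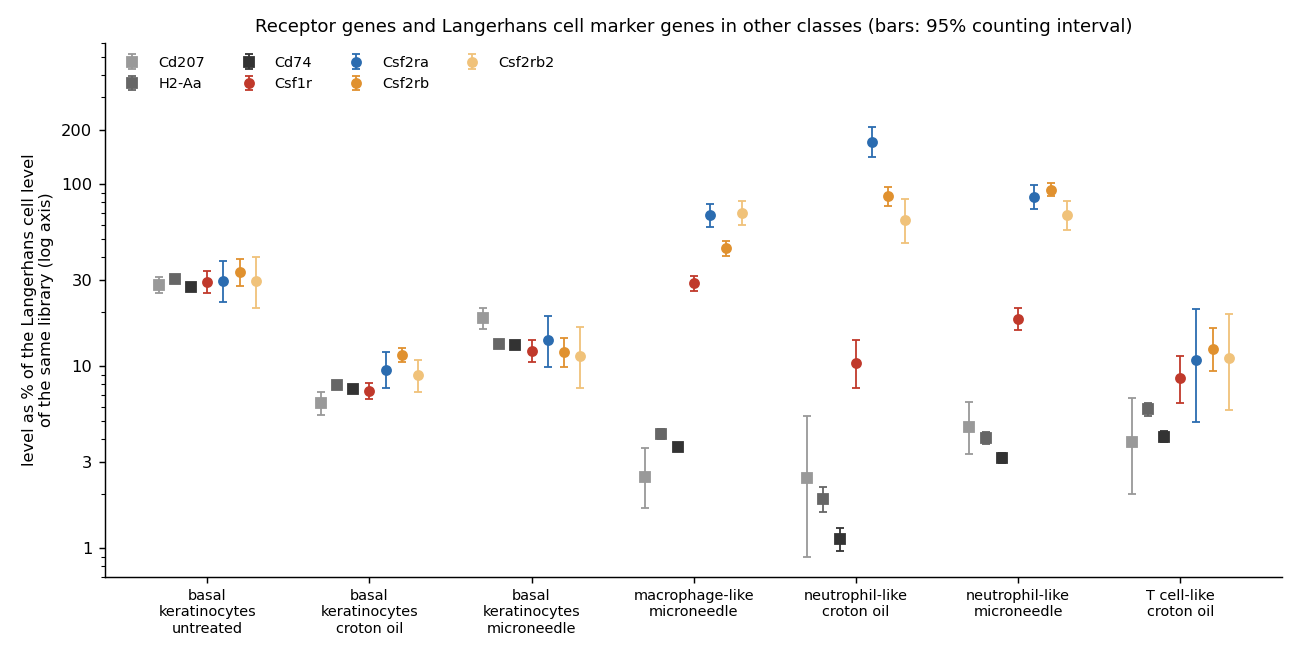
Levels of receptor genes (circles) and of Langerhans cell markers Cd207, H2-Aa and Cd74 (squares) in other classes, as a percentage of the Langerhans cell level of the same library, on a log axis with 95% counting intervals. In basal keratinocytes of the untreated library all 7 genes lie near 30%, from 27.3% to 33.0%. In neutrophil-like and macrophage-like cells the receptor genes lie above the markers.

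Sequences just before the start are shown for Csf2ra, the GM-CSF receptor's alpha chain. They are also shown for Csf2rb2, the IL-3 receptor paralogue of the shared beta chain. These receptor genes had like patterns over cell classes, but within Langerhans cells Csf2ra changed less than the beta chains. Over 11 units of a class in a library with 50 cells or more, log2 levels of Csf2ra and Csf2rb had a Pearson correlation of 0.92, and those of Csf2rb and Csf2rb2 of 0.97. These units share libraries, and the values are descriptive. RefSeq promoter windows (GRCm38.p6) were given for 4 of the 7 genes shown, Csf1, Csf2, Csf2ra and Csf2rb2. The 250 bases before the start, 5′ to 3′ on the gene's strand, carry in capitals each match to GAGGAA, the core of sites of the ETS factor PU.1 (gene Spi1), or to TTCNNNGAA, a STAT dimer site, on either strand.
Csf2ra, chr19:61228419-61228668, minus strand: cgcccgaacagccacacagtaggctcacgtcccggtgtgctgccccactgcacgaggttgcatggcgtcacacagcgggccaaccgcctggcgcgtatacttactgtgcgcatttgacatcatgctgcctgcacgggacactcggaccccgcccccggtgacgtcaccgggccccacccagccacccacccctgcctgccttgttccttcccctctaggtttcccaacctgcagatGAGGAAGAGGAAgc
Csf2rb2, chr15:78305722-78305971, minus strand: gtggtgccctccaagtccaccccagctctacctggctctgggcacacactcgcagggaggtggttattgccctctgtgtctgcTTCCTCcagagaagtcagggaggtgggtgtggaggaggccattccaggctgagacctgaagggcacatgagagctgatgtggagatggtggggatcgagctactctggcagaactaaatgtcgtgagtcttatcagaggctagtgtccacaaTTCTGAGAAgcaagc

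The Csf2ra window holds 2 adjoining GAGGAA matches, 14 to 3 bases before the start. That of Csf2rb2 has 1, as TTCCTC, 167 to 162 bases before the start, and 1 STAT-type match 15 to 7 bases before it. GAGGAA on either strand occurs in 23.3% of all 32851 such windows and TTCNNNGAA in 7.02%. The AP-1 site TGANTCA, found in 6.75%, has no match in either window. Spi1 is also among the 5 genes closest to Csf2ra in pattern over cell classes, below. Within Langerhans cells of untreated, croton oil and microneedle, Spi1 was at 402, 472 and 366 CPM. Csf2ra was at 89.7, 87.2 and 110 CPM in the same cells. A link of PU.1 to Csf2ra was not tested. Stretches of 90 bases shared with Csf2rb2 transcripts were 8.19% of all those in the longest Csf2rb transcript. They were 0% in its last 1000 bases, where a 3′ assay would read. How reads were split between Csf2rb and Csf2rb2 was not tested.

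Il34 was highest in keratinocytes in every library, and in basal keratinocytes it fell after both treatments. In untreated basal keratinocytes (82 cells) it was at 93.4 CPM (81.4 to 107). Those of croton oil (183 cells) had 15.3 CPM (12.9 to 17.9) and those of microneedle (63 cells) had 22.3 CPM (16.9 to 28.9). That is 6.12-fold lower (4.94 to 7.60) in croton oil and 4.18-fold lower (3.11 to 5.70) in microneedle, or -2.28 and -1.85 on the log2 scale. The untreated interval of the levels lies apart, while those of croton oil and microneedle overlap. At 3000 UMIs per cell an Il34 UMI was found in 17.7% (10.0 to 27.9) of untreated, 5.29% (2.45 to 9.81) of croton oil and 3.45% (0.42 to 11.9) of microneedle basal keratinocytes. The untreated and microneedle intervals of these shares overlap. Without thinning, at medians of 29759, 52141 and 34373 UMIs, it was found in 65.9%, 30.6% and 36.5%.

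By the same rule 16.2% of 7788 genes were lower in croton oil basal keratinocytes and 5.09% of 7773 in microneedle. Csf2ra was the other of the 6 genes called lower in croton oil, at 8.36 CPM against 26.4 CPM. In that contrast Il34 and Csf2ra both reached 20 CPM only in the untreated library, where they were higher. The untreated Csf2ra level was not read as expression above, so its call is not read as a change of keratinocytes. Cd207 was at 28.1% and 6.26% of its Langerhans cell level in the same cells, and the part of such RNA in the Csf2ra values was not tested. In microneedle Il34 was the only one of the 6 genes that was called, since Csf1 lay below 20 CPM in both libraries. Csf1 was 3.42-fold lower there (1.84 to 6.76), a log2 difference of -1.18 on 14 and 44 UMIs. Basal cells of the untreated library held more RNA of Langerhans cell marker genes than those of the treated libraries, and its part in the Il34 difference was not tested. The basal cells themselves also differed: Krtdap, a gene of early differentiation, was at 409, 1433 and 1398 CPM, and the proliferation gene Mki67 at 41.4, 189 and 190 CPM. Other differentiation genes went the other way, with Krt10 at 251, 170 and 154 CPM and Lor at 16.2, 2.20 and 5.48 CPM. The part of these differences was not tested either.

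Among untreated keratinocytes Il34 had different levels from layer to layer. Suprabasal keratinocytes, gated by Krt1 and Krt10 (97 cells), had 137 CPM (125 to 150). A further 61 cells of the keratinocyte cluster that passed neither keratin gate had 357 CPM (300 to 422). Those cells were rich in transcripts of the granular layer, with 22456 CPM of Lor, the gene of loricrin, and 5191 CPM of Flg2, against 7726 and 1242 CPM in suprabasal and 16.2 and 0.853 CPM in basal cells. Lor and Flg2 were chosen after their values were seen. The 3 intervals of Il34 do not overlap. Cd207 was at 28.1% of its Langerhans cell level in the basal cells, 6.75% in the suprabasal cells and 8.71% in the 61 others, and the part of this RNA in the order of Il34 levels was not tested.

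Treated libraries held few such cells. In suprabasal keratinocytes 33 Il34 UMIs were counted among 1235832 UMIs in 30 croton oil cells, and 46 among 745512 in 27 microneedle cells, against 458 among 3336994 in untreated. These cells differed in their markers too: Lor was at 51.8 CPM in croton oil, 2343 CPM in microneedle and 7726 CPM in untreated, and Krt14 at 8345, 5659 and 294 CPM. The part of this in the Il34 counts was not tested. The 15 and 12 treated cells in neither keratin gate had 5382 and 2828 CPM of the melanocyte gene Dct, against 0 UMIs of it in the untreated 61, and were not compared with them.

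In Langerhans cells Il34 was at 1.08, 0.566 and 0.559 CPM. Untreated Langerhans cells had 1.15% (0.912 to 1.45) of the basal keratinocyte level of Il34, beside 0.610% for Krt14 and 0.574% for Krt5. In croton oil Il34 was at 3.71% (2.60 to 5.19) beside 0.455% for Krt14. In microneedle it was at 2.50% (1.69 to 3.70) beside 0.0957%. The part of keratinocyte RNA in these values was not tested. The keratin gates and the keratinocyte cluster together held 87.5% of all Il34 UMIs in untreated (814 of 930), 70.8% in croton oil (182 of 257) and 62.6% in microneedle (114 of 182). These counts include 3 and 11 UMIs in the 15 and 12 treated cells in neither keratin gate, a set that holds Dct. The same keratinocyte classes held 5.30%, 10.2% and 3.17% of all UMIs in untreated, croton oil and microneedle. Neutrophil-like cells had 0 Il34 UMIs, which allows a level of up to 4.0 and 1.66 CPM in the treated libraries (3 counts).

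Csf1, the second ligand of the receptor, had its highest levels in neutrophil-like cells of the treated skin. Croton oil neutrophil-like cells had 162 CPM (134 to 193), and microneedle ones 416 CPM (387 to 447). The microneedle level was 2.58-fold higher (2.13 to 3.15), past the 2-fold rule, which 12.8% of 5403 genes passed in that direction. Cells with a Csf1 UMI made up 23.9% (16.2 to 33.0) and 42.6% (36.5 to 48.8) of neutrophil-like cells after thinning to 3000 UMIs, which left out 103 and 146 cells. Before thinning they made up 29.7% and 46.5%. Cells of the cluster that held neutrophil markers and no macrophage marker gave 164 and 407 CPM. Of the 930 Csf1 UMIs in the microneedle library, 751 (80.8%) were in neutrophil-like cells, which held 1.67% of all UMIs. In croton oil, neutrophil-like cells held 18.7% (15.7 to 21.9) of 648 Csf1 UMIs and Langerhans cells 54.2% (50.2 to 58.1), with 75.4% of all UMIs in the latter.

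Macrophage-like cells of microneedle had 27.4 CPM of Csf1 (21.4 to 34.6). Basal keratinocytes had 18.8 CPM (13.6 to 25.2), 12.4 CPM (10.3 to 14.9) and 5.48 CPM (3.0 to 9.20) in untreated, croton oil and microneedle. In the untreated library the keratinocyte classes held 49.4% (41.6 to 57.3) of 166 Csf1 UMIs.

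Langerhans cells themselves had little Csf1, and those of croton oil had more than the others. There were 72, 351 and 81 Csf1 UMIs, or 0.668 CPM (0.523 to 0.841), 4.32 CPM (3.88 to 4.79) and 0.838 CPM (0.666 to 1.04). The croton oil level was 6.46-fold the untreated one (5.0 to 8.44), but the gene lies below 20 CPM and its log2 difference with 5 CPM added was 0.72, so it was not called. With 1 CPM added the log2 difference was 1.67. Without doublet removal the microneedle level was 2.15 CPM. Of the 351 UMIs, 277 were in the largest croton oil cluster, in 182 of its 4761 cells. Csf1 in croton oil Langerhans cells was 2.67% of its neutrophil-like level, against 0.0567% for S100a8. The part of neutrophil RNA in it was not tested. Among the 72 untreated UMIs, 23 came from 3 gated cells of the macrophage cluster.

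**Figure D5:**
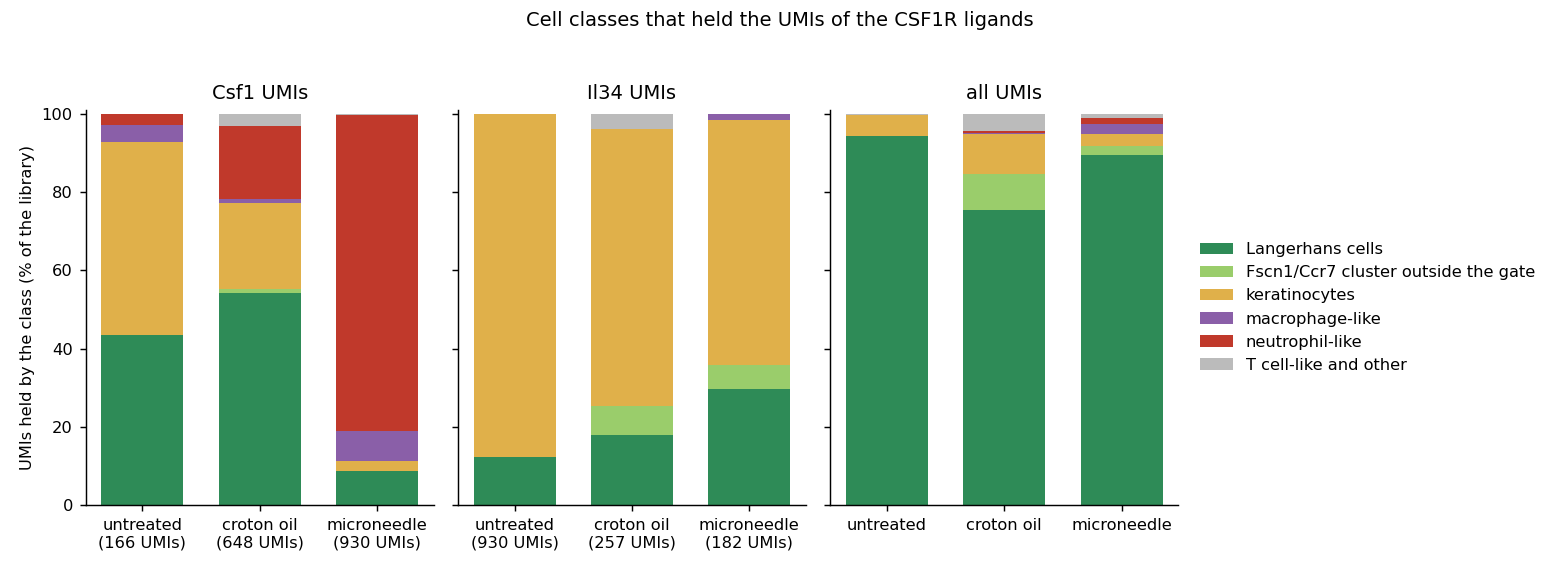
Stacked bars give the percentage of all Csf1 UMIs (left), Il34 UMIs (middle) and UMIs of all genes (right) held by each cell class in each library, with the number of UMIs of the gene in brackets. Neutrophil-like cells hold 80.8% of Csf1 UMIs in microneedle, while the keratin gates and the keratinocyte cluster, drawn as keratinocytes and with the 15 and 12 treated cells in neither gate among them, hold 87.5%, 70.8% and 62.6% of Il34.

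Csf2, the gene of GM-CSF, was almost undetected and was seen only in cells of the T cell cluster in these 3 libraries. That cluster, led by Cd3g and Trdc, the constant region of the delta chain of the T cell receptor, held 209 croton oil, 26 microneedle and 2 untreated cells. In croton oil 11 of its cells had 14 Csf2 UMIs, with 2 at most in a cell. Trdc was at 1640 CPM in that cluster and Trac, the alpha chain, at 14.4 CPM. In microneedle 1 cell of the cluster had 1 UMI. All other retained cells, 9052, 7417 and 6453 of them, had 0. Because 75 croton oil cells of the cluster passed the Langerhans cell gate, 6 of the 14 UMIs fall in it. Over the 134 cells outside the gate Csf2 was at 8.42 CPM (3.63 to 16.6). A count of 0 in untreated Langerhans cells allows up to 0.0278 CPM. Neutrophil-like cells were also at 0, with the same limits as for Il34.

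The genes with the most similar pattern over the 11 units were taken from 10774 genes, by Pearson correlation of log2 levels. For Csf1r they were Gpr132 (0.96), Nlrc4 (0.95), Etv6 (0.95), Usp8 (0.94) and Mvp (0.94). For Csf2rb its paralogue Csf2rb2 came first, then Hip1 (0.96), Cd80 (0.95), Cfp (0.95) and Picalm (0.95). Csf2ra was closest to Gm10634, Alcam, Skap2, Spi1 and Milr1, with values from 0.99 to 0.98. For Il34 they were the keratinocyte defensin gene Defb6 and Skint1, Frmpd1, Pak3 and Naaladl2, at 0.99 to 0.98. Those of Csf1 were Sorl1, Gm31005, Slc25a37, Gm15684 and Selenon, at 0.97 to 0.95. Csf1r and Il34 themselves had a correlation of -0.59. The units share libraries and depth, and the genes were picked for their likeness.

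Other genes of these pathways were read in gated Langerhans cells from 6 lists of 75 genes. In croton oil 51 of them were measured, 6 rose and 1 fell by 2-fold or more, where 5.5% of all genes were higher and 5.53% lower. In microneedle 50 were measured, 4 rose and 1 fell, where 3.88% of all genes were higher and 1.76% lower. All-gene medians were -0.03 and 0.03 on the log2 scale.

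Of 17 CSF1R adaptors and kinases 16 were measured, and Src, a tyrosine kinase, was the single one called, from 13.2 to 40.2 CPM in microneedle (log2 1.31). Src was below 20 CPM in untreated cells and counted as measured only through the library where it was higher. The list's median was 0.23 in croton oil and 0.16 in microneedle. Among 12 transcription factors of the lineage, 10 were measured and 2 rose in croton oil, among them Ets2, from 24.2 to 54.8 CPM (log2 1.03). In microneedle Ets2 was at 36.1 CPM (log2 0.49), and none of the 10 reached the threshold. Spi1 was at 402, 472 and 366 CPM. Neutrophil-like cells had 323 and 1358 CPM of Ets2 in the treated libraries. The part of their RNA in the Langerhans cell values was not tested.

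Of 18 genes of the GM-CSF and IL-3 receptor family and its signalling 14 were measured. Socs3, a feedback inhibitor of cytokine signalling, rose in croton oil from 23.6 to 112 CPM (log2 2.03), and the kinase gene Pim1 from 262 to 577 CPM (log2 1.12). In microneedle they were at 36.4 and 358 CPM, and the survival gene Bcl2l1 rose from 121 to 250 CPM (log2 1.02). The list's medians were 0.39 and 0.46. Jak2, the kinase bound to the beta chain, was at 185, 198 and 217 CPM. Stat5a was at 37.2, 26.8 and 25.5 CPM. Neutrophil-like cells had more Socs3 than Langerhans cells, at 384 CPM in croton oil.

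Other growth factor genes and inducers of these ligands gave 3 further genes that were called, each in both libraries. Il7r, the IL-7 receptor chain also used by TSLP, rose in both libraries, from 217 to 911 and 591 CPM (log2 2.05 and 1.43), beside 973 CPM in macrophage-like cells of microneedle. Il1b, an inducer of CSF ligands, rose from 73.8 to 693 and 339 CPM (log2 3.15 and 2.13). Neutrophil-like cells carried 2837 and 8643 CPM of it there, and the part of their RNA in the Langerhans cell values was not tested. Tnf fell from 605 to 267 and 265 CPM, by 1.16 and 1.18 on the log2 scale. Both measured genes for shedding of CSF1R, Adam17 and Adam10, stayed within 2-fold. The IL-34 co-receptor genes Ptprz1 and Sdc1 were under 2 CPM in Langerhans cells.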

How the data were processed

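The authors deposited UMI counts per gene and cell, written by Cell Ranger 8.0.0 per the file headers, with GRCm39 named in the submitters' processing notes; the annotation and strand setting are not given in the sources used here. Cells with fewer than 500 genes or over 10% mitochondrial UMIs were left out. Scrublet's own threshold marked 5, 1 and 4 doublets, so the top 0.8% per 1000 cells were removed instead (773, 532 and 376). Retained cells were clustered jointly with scanpy 1.11.5 and leidenalg 0.10.2 (2000 variable genes, 30 components, 15 neighbours, resolution 0.5) into 10 clusters named from marker genes. Basal keratinocytes had Krt14 and Krt5 at 0.3% of UMIs or more, suprabasal ones Krt1 and Krt10 at 0.5%. Counts were summed per class and library, with exact Poisson 95% intervals for CPM, exact conditional intervals for ratios and Clopper-Pearson intervals for shares, for counting error only. Classes under 50 cells are given as counts or levels without a call. Named genes were the 6 genes, Csf2rb2, the 5 most correlated genes of each of the 6 but Csf2 (below 20 CPM in every class), and list genes at least 2-fold apart (up to 5 per list). Other genes, among them Jak2, Stat5a, Spi1, Adam17, Adam10, Ptprz1, Sdc1, Flt3, Krtdap and Mki67, were chosen after their values were seen. The 2-fold rule was tested on simulated counts, and the outcome is not given here. The members and lists were chosen with earlier results of these data known. One gene of the transcription factor list is counted but not reported here by name.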

Additional observations from a re-analysis of the deposited data

How the results depend on the processing

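No paired analysis was possible because each group has 1 library, and no library could be left out. The number of the 6 genes at least 2-fold apart in croton oil Langerhans cells went from 1 to 2 with a pseudocount of 1 CPM (Csf1 added, below 20 CPM) and to 2 with TMM scaling or the largest cluster alone (Csf1r added; the cluster was chosen after seeing the data). In microneedle it went from 2 to 1 with TMM scaling and to 0 with mitochondrial and ribosomal protein genes out of the total. Between the treatments it went from 0 to 1 with a pseudocount of 1 CPM (Csf1). Counts of all genes went from 754 to 500, from 378 to 251 and from 177 to 117 with genes of 50 CPM or more, where fewer genes were tested. Over 12 settings the log2 difference of Csf1r ran from 0.83 to 1.06 in croton oil and from 0.99 to 1.06 in microneedle, and that of Csf2rb from 1.27 to 1.42 and from 0.98 to 1.10. Csf1 in microneedle Langerhans cells was 2.15 CPM without doublet removal, against 0.838. Few UMIs limit Csf2, and few cells limit the treated suprabasal keratinocytes.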
